A study of Bos taurus with 2 samples.

Results

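The enzymes that cut, protect and crosslink the extracellular matrix were described in the fetal *longissimus thoracis* (LT) muscle of Japanese Black cattle. The set holds 10 genes, which are the matrix metalloproteinases *MMP2* and *MMP14*, their tissue inhibitors *TIMP1*, *TIMP2* and *TIMP3*, the lysyl oxidases *LOX*, *LOXL1* and *LOXL2*, and the lysyl hydroxylases *PLOD1* and *PLOD2*. The genes were chosen by name, and their probes by the RefSeq accession printed with each probe. All 10 genes were matched, with 24 of the 43652 probes, against 26714 genes or transcripts on the whole array.

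The dams were fed 120% (high-nutrition, HN) or 60% (low-nutrition, LN) of the nutritional requirement through gestation, and the muscle was taken at 8.5 months of gestation. Total RNA of 4 fetuses per group was pooled and hybridized to 1 one-color Agilent bovine array per pool. The HN pool was made from the fetuses with the highest bodyweight and the LN pool from those with the lowest, so diet and the selection by bodyweight cannot be told apart. Each pool was measured once, so the groups could not be tested against each other and no p-value is given. All differences are written as log2 LN/HN, which is above 0 where the signal was higher in the LN pool.

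Fibrillar collagen is made in fibroblasts as procollagen chains. Lysyl hydroxylases modify lysines of these chains inside the cell, and lysyl oxidases later act on lysines and hydroxylysines outside it, which starts the covalent crosslinks of collagen and elastin. Metalloproteinases degrade matrix proteins, and the TIMP proteins bind and block them. In muscle, the balance of these enzymes helps to set how much connective tissue is kept around the fibres and how stiff it is.

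The scanner software called 74.5% (HN array) and 70.9% (LN array) of the spots well above background. All 24 member probes were well above background on both arrays, none was saturated and none carried an outlier flag, so each member value was measured on both arrays. For 42 probes printed in several spots, the SD of the log2 LN/HN of a single spot was 0.086. The median SD between probes of a gene was 0.099 over 7139 genes. The error model of the scanner software gave a larger error, with a median of 0.20 for the log2 LN/HN of a member probe. These errors cover the array measurement and not the variation between fetuses, and the number of arrays limits the precision. The probes differ in binding strength, so signals are compared between the pools for the same probe and never between probes.

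Of the 10 genes, *LOX* was higher in the LN pool and *LOXL2* lower by more than the threshold used here, a log2 difference of 0.32. Genes beyond it are called past the threshold. The other 8 genes lay between a log2 LN/HN of -0.30 and 0.25. Over all 19554 genes with a value, 8.85% were past the threshold and higher and 9.11% past it and lower, 18.0% in either direction. The set as a whole, with 1 gene past the threshold in each direction, was thus near this background. Its median log2 LN/HN was -0.049, against -0.0033 over all genes, with 4 genes higher and 6 genes lower. Among the single probes, 9 were higher and 15 lower, and 16 of the 24 differed by less than 0.17, which is 2 SD of a single spot.

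**Figure D1:**
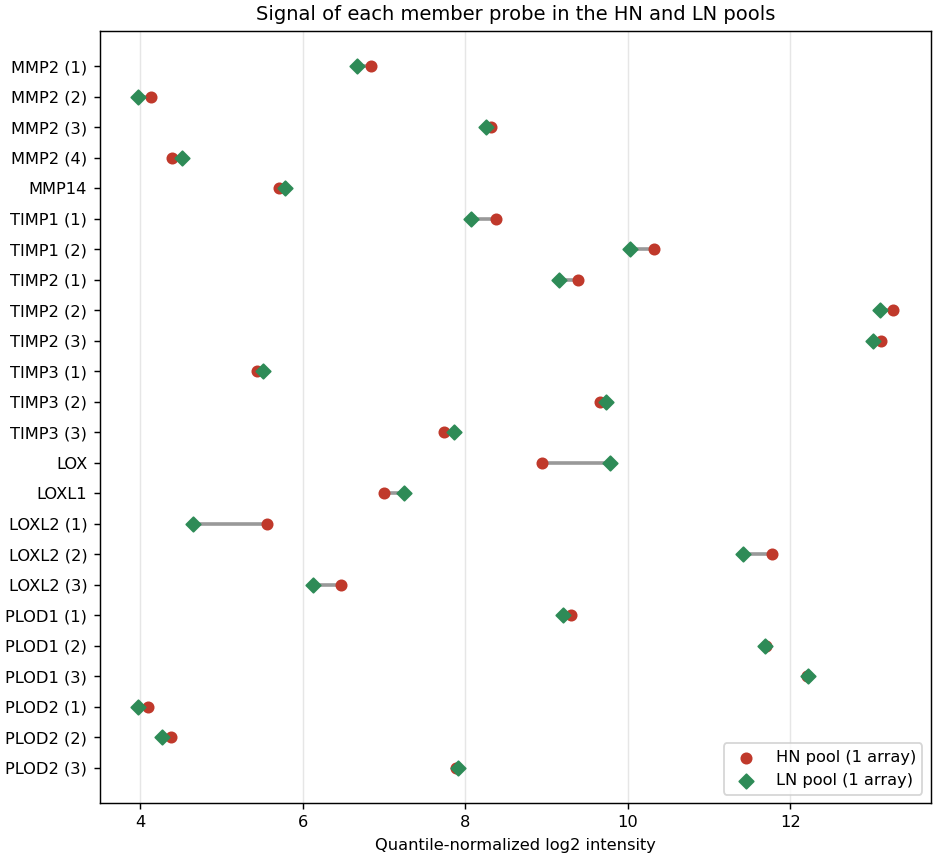
Quantile-normalized log2 intensity (horizontal axis) of each of the 24 member probes (rows, numbered within a gene from the lowest log2 LN/HN) in the HN pool (circles) and the LN pool (diamonds), 1 array each. *LOX* shifts to the right in the LN pool, from 8.95 to 9.78, all 3 probes of *LOXL2* shift to the left, and the points of most other probes overlap or nearly so.

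The lysyl oxidases differed in direction. *LOX*, the founding member of the family that oxidizes lysines of collagen and elastin, had log2 signals of 8.95 (HN) and 9.78 (LN). The LN signal was thus 1.79-fold higher (log2 LN/HN 0.84, software error 0.20, 1 probe). This placed *LOX* at rank 253 from the highest of 19554 genes. Of the 1506 probes whose mean log2 signal lay within 0.25 of that of *LOX*, 95% had a log2 LN/HN between -0.39 and 0.35, and 4 probes exceeded it. In the authors' normalized values the log2 LN/HN of *LOX* was 0.81. The value rests on 1 probe, so no other part of the transcript was measured.

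*LOXL2*, a family member that carries scavenger receptor domains and acts on basement membrane collagen, was lower in the LN pool in all of its 3 probes. The brightest probe had log2 signals of 11.78 (HN) and 11.42 (LN), which gives a log2 LN/HN of -0.36. The next had 6.47 and 6.12, which gives -0.35. The dimmest had 5.56 and 4.65, which gives -0.91, and 12 of the 1748 probes of like signal were lower than it. For the brightest probe 31 of 890 probes of like signal were lower, and for the next 126 of 1774. Each of the 3 probes was past the threshold on its own. The mean of the gene was -0.54, so the HN signal was 1.45-fold higher, and without the dimmest probe the mean was -0.35, or 1.28-fold. The distance between *LOX* and *LOXL2* was 1.38 on the log2 scale.

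*LOXL1*, which is known for its role in the renewal of elastic fibres, had log2 signals of 6.99 (HN) and 7.25 (LN) for its 1 probe. Its log2 LN/HN was 0.25, in the direction of *LOX* but short of the threshold, and 188 of 1721 probes of like signal were higher. Both family members outside the set were short of the threshold. The 1 probe of *LOXL4* gave a log2 LN/HN of 0.27, with signals of 9.12 (HN) and 9.39 (LN). The 2 probes of *LOXL3* gave opposite signs, -0.18 and 0.46, with a mean of 0.14. Of the 5 lysyl oxidase genes, 4 were therefore higher in the LN pool and *LOXL2* was lower, although the direction of *LOXL3* follows from the choice of probe.

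**Figure D2:**
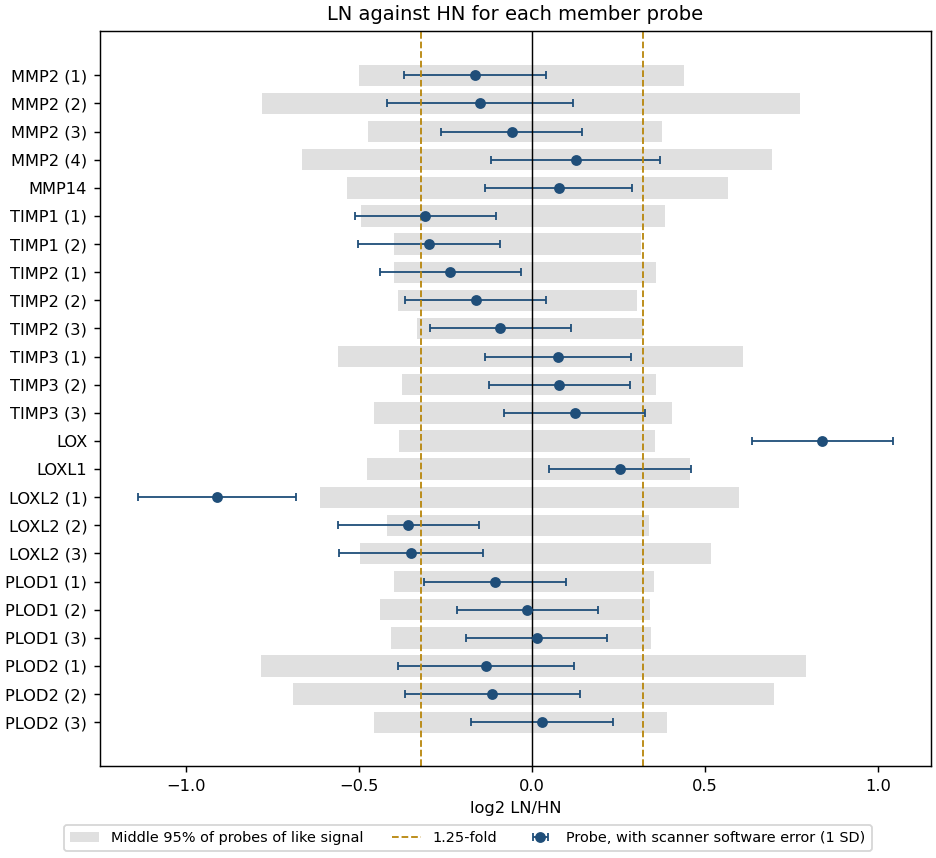
Log2 LN/HN (horizontal axis) of each of the 24 member probes (rows, in the same order as in the plot of signals), with bars of 1 SD from the error model of the scanner software. Grey bands hold the middle 95% of all detected probes of like signal and dashed lines mark the threshold. The *LOX* probe (0.84) and the dimmest *LOXL2* probe (-0.91) lie outside their bands, and all other member probes lie inside.

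The inhibitors of metalloproteinases differed among themselves. *TIMP1*, an inhibitor that is induced by growth factors and cytokines, was lower in the LN pool in both probes. One had log2 signals of 10.32 (HN) and 10.02 (LN), and the other 8.38 and 8.07. The log2 LN/HN values were -0.30 and -0.31, with an SD of 0.007 between both probes. The mean of -0.30 means that the HN signal was 1.23-fold higher, just short of the threshold. It exceeds 2 SD of a single spot, but each probe value is within 2 SD of the larger software error, which was 0.20 for both probes. Of all genes, 10.2% were lower still.

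*TIMP2*, which both inhibits *MMP2* and helps *MMP14* to activate it at the cell surface, was lower in all of its 3 probes. The brightest had log2 signals of 13.26 (HN) and 13.10 (LN), the next 13.11 and 13.02, and the dimmest 9.39 and 9.15. The log2 LN/HN values ran from -0.24 to -0.092, with a mean of -0.16, which is within 2 SD of a single spot, as the lowest of them is not. *TIMP3*, the inhibitor that stays bound to the matrix, was slightly higher in all of its 3 probes, between 0.075 and 0.12 with a mean of 0.092. Its log2 signals were 9.66 in HN and 9.74 in LN for the brightest probe, 7.74 and 7.86 for the next and 5.43 and 5.51 for the dimmest. For *TIMP4*, the inhibitor outside the set, 2 probes gave -0.19 and 0.0037, a mean of -0.091.

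In the gene table used for names, *TIMP1* and *TIMP3* each lie inside the span of a synapsin gene, *SYN1* and *SYN3*. The array values of host and inhibitor differed. The log2 LN/HN was 0.95 for *SYN3* and 0.25 for *SYN1*, each with 2 probes, against 0.092 for *TIMP3* and -0.30 for *TIMP1*. Members that overlap another measured gene without lying inside it were *TIMP2* with *CEP295NL* and *MMP14* with *RBM23*. The log2 LN/HN was -0.35 for *CEP295NL* (2 probes) against -0.16 for *TIMP2*, in the same direction. It was -0.23 for *RBM23* (3 probes) against 0.077 for *MMP14*. These overlapping genes were named after their values had been seen.

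Of the metalloproteinases, *MMP2*, the gelatinase A of stromal cells, has 4 probes with log2 signals of 8.32, 6.83, 4.39 and 4.12 (HN) and of 8.26, 6.67, 4.52 and 3.97 (LN). Their log2 LN/HN values were -0.059, -0.16, 0.13 and -0.15, with a mean of -0.061, and each was within 2 SD of a single spot. *MMP14*, the membrane-bound collagenase that activates pro-MMP2, has 1 probe with log2 signals of 5.70 (HN) and 5.78 (LN), which gives 0.077. Both gene values were thus below the SD of a single spot. Set against the 3 inhibitors, whose mean was -0.12, the mean of both enzymes was 0.0076, a difference of 0.13.

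The other metalloproteinase genes, *TIMP4* and the membrane-anchored inhibitor *RECK* formed a list of 21 genes. Of these, 9 had a value, of which 3 were higher and 6 lower, and the median was -0.16 on the log2 LN/HN scale. No probe was detected for *MMP3*, *MMP7*, *MMP12*, *MMP20* and *MMP27*, and *MMP8*, *MMP11*, *MMP17*, *MMP21*, *MMP24*, *MMP25* and *MMP28* had no probe with a matched accession. *MMP1*, the interstitial collagenase, was lower and just past the threshold (log2 LN/HN -0.32), but at log2 signals of 3.81 in HN and 3.49 in LN. The log2 LN/HN was -0.28 for *MMP15*, a membrane-bound enzyme with 3 probes (-0.52 to -0.16), and -0.23 for *MMP19* with 2. For *MMP9*, the gelatinase of leukocytes, 1 probe gave -0.24, and another was dim and gave no fold. *RECK* was higher and past the threshold (0.41), from 1 detected probe with log2 signals of 4.47 and 4.88. The value of *RECK* ranged from 0.16 to 1.45 under the other settings and that of *MMP1* from -0.49 to -0.052. The values of *MMP15* (-0.52 to -0.17), *MMP19* (-0.40 to -0.095) and *MMP9* (-0.40 to -0.029) were past the threshold in at least 1 of them.

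The lysyl hydroxylases of the set differed little between the pools. *PLOD1*, the enzyme that modifies lysines in the helix of collagen, had log2 signals of 12.20 in HN and 12.22 in LN for its brightest probe, 11.70 and 11.69 for the next, and 9.31 and 9.20 for the dimmest. The log2 LN/HN values were 0.013, -0.014 and -0.11, with a mean of -0.036. *PLOD2*, which acts on the telopeptides of collagen, had log2 signals of 7.89 in HN and 7.91 in LN for its brightest probe, and 4.37 and 4.26, and 4.10 and 3.97, for the others. Its log2 LN/HN values were 0.029, -0.11 and -0.13, with a mean of -0.073. All 6 probes of both genes were within 2 SD of a single spot.

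*PLOD3*, the relative outside the set that also carries glycosyltransferase activity, was lower and past the threshold, with a mean log2 LN/HN of -0.44. This mean comes from 3 probes. The brightest, with log2 signals of 11.23 (HN) and 11.04 (LN), gave -0.19, and the next gave -0.14. The lowest value, -0.99, came from the probe with the lowest signals of these, 4.41 and 3.42. A further probe was dim in the LN pool (2.53 in HN and 2.72 in LN as measured) and gave no fold. Over the other settings the gene value lay between -0.51 and -0.16. Among the transglutaminases, which form crosslinks of another kind between matrix proteins, *TGM2* was at 0.027 in the mean of 2 bright probes. *TGM3* was higher and past the threshold (0.36), from 1 detected probe with log2 signals of 4.22 and 4.58, and it was -0.082 in the setting with the lowest value. The list of the other crosslinking enzymes, with 5 of 6 genes measured, had a median of 0.14.

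Fibrillar collagens and elastin are substrates of the lysyl oxidases. In a list of 15 fibrillar collagen, elastin and associated genes, all 11 genes with a value were higher and 5 of them (45.5%) were past the threshold, against 8.85% of all genes. The median log2 LN/HN was 0.26, against -0.0033 over all genes, and 46 of the 54 probes of the list were higher. The lowest values were those of *COL5A3* (0.034) and of *FN1* (0.035), the fibronectin gene, with 6 of its 13 probes lower, both named after their values had been seen. *ELN*, which encodes elastin, had a log2 LN/HN of 0.82. Its 6 probes were all past the threshold, between 0.42 and 1.21, and the brightest went from a log2 signal of 12.76 in HN to 13.75 in LN (0.99). The lowest gene value over the other settings was 0.49. *LOX* (0.84) and *ELN* thus had the highest values among the genes of the set and of its substrates.

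*COL1A2*, a chain of type I collagen, had a log2 LN/HN of 0.42, with all 6 probes higher. The value was 0.34 for *COL1A1*, the other chain, over 5 probes and 0.33 for *COL3A1*, the chain of type III collagen, over 10 probes, all of them higher. It was 0.45 for *POSTN*, which encodes the matrix protein periostin, over 3 probes. In the settings with the lowest values, *COL1A1* (0.315), *COL3A1* (0.305) and *POSTN* (0.3204) were just short of the threshold. *COL5A1*, *COL5A2*, *FBN2* and *LTBP4* had no matched probe. In contrast, the list of basement membrane genes, 8 of 14 with a value, had a median of -0.049 and no gene past the threshold. In this list *LAMB2*, a laminin chain of the synaptic and vascular basement membrane, had a log2 LN/HN of -0.26 and *NID1*, which links laminin to collagen IV, of 0.19 with probes from -0.19 to 0.60 and a lowest value of 0.11 over the other settings.

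**Figure D3:**
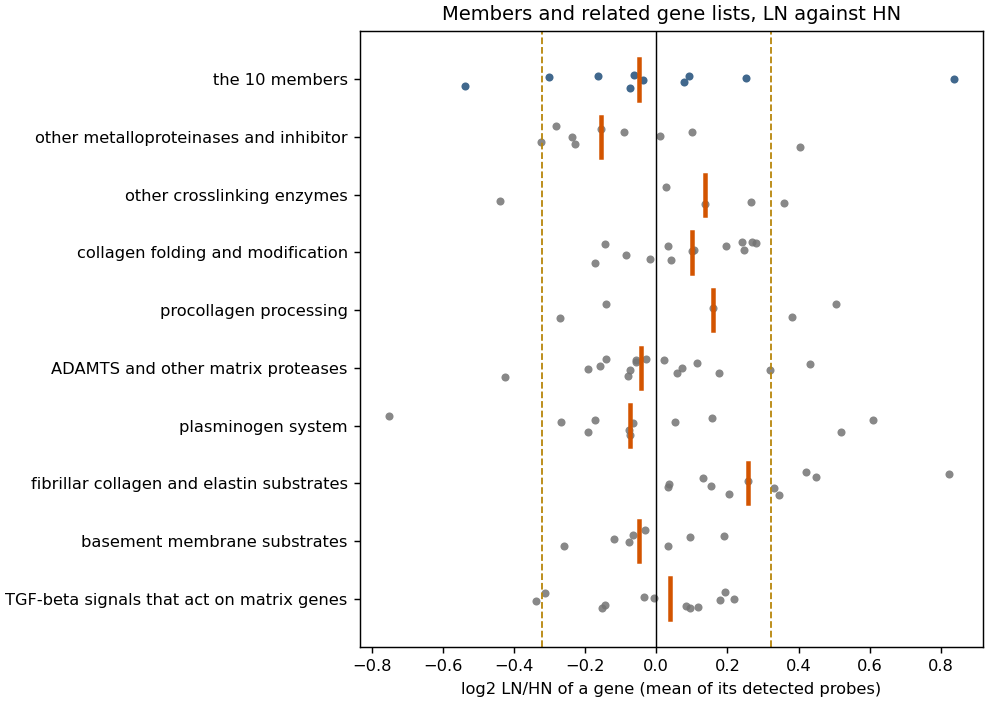
Log2 LN/HN (horizontal axis) of each gene with a value in the set and in the 9 related gene lists (rows). Each point is 1 gene, with a random vertical offset for legibility, orange bars are medians and dashed lines mark the threshold. All 11 points of the fibrillar collagen and elastin list lie to the right of 0, with a median of 0.26, while the set has a median of -0.049 with *LOX* and *LOXL2* at its ends.

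Another list held genes that fold and modify collagen in the endoplasmic reticulum. Of 13 genes with a value, 9 were higher and 4 lower, the median log2 LN/HN was 0.10 and none was past the threshold. *P4HA2*, a prolyl hydroxylase subunit, had a log2 LN/HN of 0.28 with all 4 probes higher, and was past the threshold with its brightest probe (0.43). In the same list, *FKBP10*, a chaperone that works with the hydroxylation of telopeptide lysines, was at 0.27 with 1 probe. The value was 0.25 for *SERPINH1*, the collagen chaperone, over 3 probes (0.12 in the lowest setting) and 0.24 for *CRTAP*, a partner of the prolyl hydroxylases, with 1 probe.

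In the list of procollagen processing, 5 of 10 genes had a value and the median was 0.16. *PCOLCE2*, an enhancer of procollagen cleavage, was higher and past the threshold (log2 LN/HN 0.38, log2 signals 10.43 and 10.81, 1 probe), and its relative *PCOLCE* was at 0.16 over 2 probes. *MEP1B*, a secreted and membrane-bound protease, was past it as well (0.51), at log2 signals of 2.91 and 3.42, and it was 0.16 in the setting with the lowest value. *ADAMTS2*, the procollagen N-proteinase, was at -0.27, the mean of probes of opposite sign (-0.65 and 0.11), and ranged from -0.37 to 0.11.

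The other matrix proteases, with 16 of 20 genes measured, had a median of -0.043, with 7 genes higher and 9 lower. *ADAMTS1*, which cleaves proteoglycans, was past the threshold (0.43) with all 3 probes higher. Its brightest probe gave only 0.14, and the gene value ranged from 0.094 to 0.52 under the other settings. *ADAMTS10*, a protein of the fibrillin microfibrils, was past it and lower (-0.42), and ranged from -0.57 to -0.14. Its 2 probes had low log2 signals (4.69 and 3.67 in HN, 4.12 and 3.40 in LN), though well above background on both arrays. *FAP*, a surface protease of activated fibroblasts, had a log2 LN/HN of 0.32, just short of the threshold before rounding, with log2 signals of 9.49 and 9.81, and ranged from 0.21 to 0.36. *ADAMTS5*, an aggrecanase, was at -0.19, the mean of probes of opposite sign (-0.43 and 0.045), and ranged from -0.43 to -0.089. In the plasminogen system, which can activate metalloproteinases, 11 of 12 genes had a value and the median was -0.073. *SERPINI1*, a serine protease inhibitor of the nervous system, was past the threshold and higher (0.61, 1 detected probe) and ranged from 0.13 to 0.66. Outside the rule for named genes, *PLAUR*, the urokinase receptor, was past it and lower (-0.75, both probes lower, 1 of them dim in the LN pool, so that the size is a lower bound), and *A2M*, a broad protease inhibitor, was past it and higher (0.52, 4 probes, while another gave no fold). *BSG*, a surface protein that induces metalloproteinases, had a log2 LN/HN of -0.27 with all 4 probes lower. *TFPI2*, a serine protease inhibitor of the matrix, had a log2 LN/HN of 0.16 (0.098 in the lowest setting) and *SERPINF2*, the inhibitor of plasmin, of -0.17 (-0.31 to 0).

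The signals of the TGF-beta pathway, which is known to raise the expression of collagen and *LOX*, showed no common direction. All 12 genes had a value, with 6 higher and 6 lower and a median of 0.039, which turned to -0.039 with the brightest probe of each gene. *CCN2*, a target of this pathway that is also called connective tissue growth factor, was at -0.31 over 2 probes, with mean signals of 8.70 (HN) and 8.39 (LN). The ligand *TGFB1* was at -0.15 with 1 probe and ranged from -0.22 to -0.052. *SMAD3* (0.22) and *SMAD2* (0.18), which carry the signal to the nucleus, were higher but short of the threshold, and *SMAD3* ranged from 0.0028 to 0.32 over the other settings. Outside the rule for named genes, *THBS1*, which encodes thrombospondin, an activator of latent TGF-beta, was the gene of the list past the threshold (-0.34, all 6 probes lower, 2 of them dim in the LN pool, so that the size is a lower bound).

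The tissue was checked with marker genes. All 10 matched markers of muscle fibres were detected, such as *ACTA1* and *CKM*, with summed intensities of 3664000 (HN) and 3493500 (LN). Of these, 3 were higher and 7 lower in the LN pool, with a median log2 LN/HN of -0.093. The myosin heavy chain genes *MYH1* (-0.50) and *MYH8* (0.35) were past the threshold in opposite directions. Of the 12 markers of fibroblasts and connective tissue, 10 were detected and all 10 were higher in the LN pool, with a median log2 LN/HN of 0.30 and a summed intensity of 369160 in HN and 470820 in LN. *TCF21* was not detected and *COL6A3* had no matched probe. Of these markers, 4 are also in the substrate list. The other 6 had a median of 0.24 and were all higher, such as *MFAP5* (0.42) and *LUM* (0.35), whereas *DCN* had a log2 LN/HN of 0.11. The markers named here were picked after their values had been seen. These markers had the direction of *LOX*, *LOXL1* and the fibrillar collagens. Their part in these values was not tested, and in bulk tissue a change in the number of cells of a type and a change in RNA per cell cannot be told apart.

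Markers of endothelium, macrophages and smooth muscle had the direction of *TIMP1*, *TIMP2* and *LOXL2*. This direction is not particular to them, since 9906 of all 19554 genes were lower and 9636 higher. The medians of the muscle fibre and erythroid markers and the values of *MMP2*, *PLOD1* and *PLOD2* were below 0 as well. Of 8 endothelial markers, all were detected and 7 were lower in the LN pool, with a median of -0.24 and a summed intensity of 35011 in HN and 27272 in LN. Of 8 macrophage markers, all were detected and 7 were lower, with a median of -0.27 and sums of 10037 and 8051. Of 7 markers of smooth muscle and pericytes, all were detected and 5 were lower, with a median of -0.30 and sums of 19151 and 15972. The 2 that were higher, named after their values had been seen, were *CSPG4* (0.11) and *PDGFRB*. The latter was past the threshold (0.49, all 3 probes higher, 1 of them dim on 1 array). Of 3 detected adipocyte markers, 2 were higher, with a median of 0.22, and 7 neutrophil markers had a median of 0.76. The 4 detected erythroid markers had a median of -0.094. The part of any of these cells in the values of *TIMP1*, *TIMP2* and *LOXL2* was not tested.

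Of 12 other ways of processing the arrays, 5 could not move any member, since all member probes were well above background on both arrays and free of flags. Under the 7 that could, 7 of the 10 genes kept their direction. *LOX*, with its single probe, could be moved by 5 of them, and was past the threshold and higher in each, between 0.72 and 0.88. *LOXL2* was lower in all 7 and past the threshold in 6. After the normexp background correction, which compresses dim signals, it was -0.29. *TIMP1* lay between -0.31 and -0.27 and was past the threshold in none. *MMP14* was -0.048 after the normexp correction. *PLOD1* was above 0 without normalization (0.0046) and with its brightest probe (0.013), and *PLOD2* with its brightest probe (0.029).

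**Figure D4:**
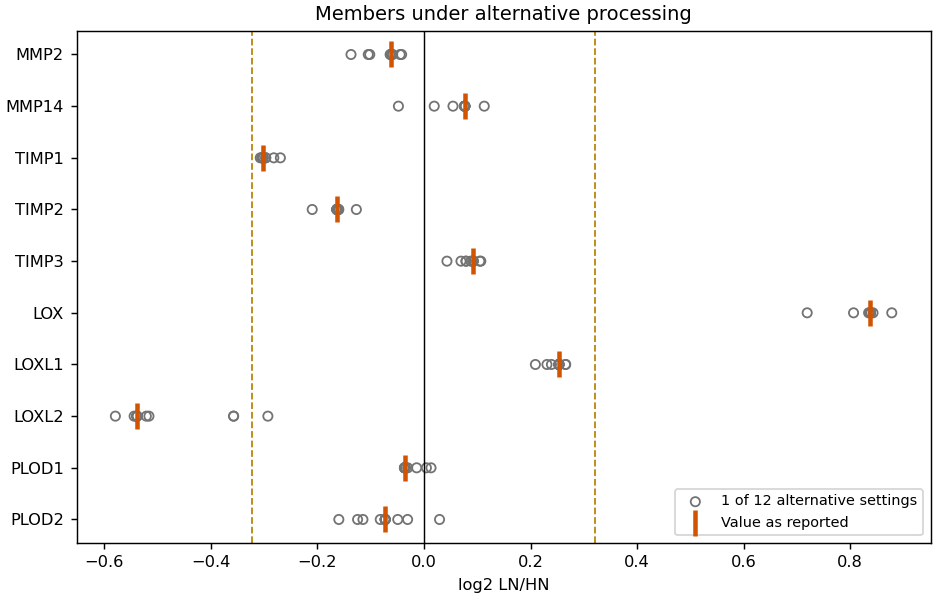
Log2 LN/HN (horizontal axis) of the 10 genes (rows) as reported (orange bars) and under each of 12 alternative settings of normalization, background correction, filter and probe summary (open circles). Dashed lines mark the threshold. *LOX* stays to the right of the upper line (0.72 to 0.88), circles of the 5 settings that could not move any member coincide with the bars, *LOXL2* lies between the lines in 1 setting (-0.29), and *MMP14*, *PLOD1* and *PLOD2* lie on both sides of 0.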

How the data were processed

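Per the file headers, the authors extracted the spot signals with Agilent Feature Extraction 11.0.1.1 and deposited intensities that are background-corrected and detrended but not scaled between arrays, together with the flags and errors of each spot. The authors also deposited quantile-normalized values from GeneSpring GX for 30027 probes, whose log2 scale is not stated and was judged from the values. They were used as an alternative, and both columns have a median of 8.03. Quantile normalization makes the arrays alike in distribution and removes any global difference between the pools.

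Here, the log2 intensities of 43803 non-control spots were quantile-normalized (limma 3.58.1, R 4.3.3). The 13 spots with outlier flags were left out, and replicate spots were averaged. Detection required a signal well above background on 1 or both arrays (32775 probes). Where it was dim on 1 array, its value there was replaced by the lowest signal still marked well above background (log2 2.27 on HN and 2.82 on LN), or its own signal if higher, and no fold was given where the bright side did not exceed this. A gene is the mean of its detected probes. The threshold, a log2 difference of 0.32, is the 1.25-fold change that the study used for its pathway lists, and no test was run. Python 3.11.15, numpy 2.4.6, pandas 2.3.3 and matplotlib 3.10.9 were used, and the steps were tested on simulated data.

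Accessions were matched to symbols through the RefSeq gene table of assembly ARS-UCD2.0 (26742 probes, 12603 symbols). The array design refers to another assembly, so no coordinates are given. The named genes are the set, up to 4 genes of each list with the largest change among those with all detected probes measured on both arrays, and fixed relatives and substrates. The set and the lists were chosen with earlier results of these data known. All lists are hand-made from general knowledge.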

Additional observations from a re-analysis of the deposited data

How the results depend on the processing

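The arrays were also scaled by cyclic loess, by their 75th percentile or not at all, corrected by normexp with offset 50 (on median spot signals, since mean signals were not used here) or replaced by the authors' normalized values. Dim probes were filtered in 3 further ways or used as measured, genes were summarized by the median or the brightest probe, and outlier spots were kept. The median of the 10 genes stayed between -0.084 and 0.021. With the normexp correction, 0 genes of the set were past the threshold and lower, and 319 genes of the whole array were higher and 386 lower, against 1731 and 1781 as reported. These whole-array counts were 3125 and 3777 with probes positive and significant on 1 array, and 3251 and 3592 without a filter. With the 75th percentile subtracted 2693 genes were lower, and the share of higher genes among those past the threshold was 30.7%, against 49.3% as reported and 39.3% without normalization. For the other metalloproteinases the median was -0.052 after normexp, -0.28 with positive and significant probes and -0.069 without a filter. For the other crosslinking enzymes it was 0.037 with the 75th percentile and 0.029 after normexp. For procollagen processing it was 0.25 in the authors' values and 0.27 with only those probes that both arrays measured. For the plasminogen system it turned to 0.046 with positive and significant probes and 0.058 without a filter, and for the fibrillar substrates it was 0.45 with the brightest probe. The cause of these shifts was not tested. No paired analysis was possible because each group has 1 array, and for the same reason no array could be left out.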

Other observations

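Some markers of other matrix-bearing or matrix-degrading cells had values of their own, which were noted after they had been seen. *TNMD*, which encodes tenomodulin of tendon and related connective tissue, was at a log2 LN/HN of -1.07 with 1 probe measured on both arrays, opposite in sign to *LOX*, *ELN* and the fibrillar collagens. The list of tendon and cartilage markers had no common direction, with 2 genes higher, 2 lower and a median of -0.048. Of the 2 counted as higher, *MKX* (0.37) rests on 1 of its 2 probes, since the other was dim in the LN pool and gave no fold. As measured, the mean log2 signal over both probes was 4.34 in HN and 3.50 in LN, which is the opposite direction. Of 7 matched neutrophil markers, all detected, 5 (71.4%) were higher in the LN pool by more than the threshold, against 8.85% of all genes, including *S100A8* (1.39) and *LTF* (0.76), with summed intensities of 1482 in HN and 2506 in LN. One of these 5, *MPO* (3.11), has 1 detected probe, which was dim in the HN pool and counted as detected only through the LN pool. Of the 2 markers that were lower, *CXCR2* was dim in the LN pool, so that the HN signal was at least 1.72-fold higher, and *ELANE* was at -0.13. *MMP9*, a gelatinase stored in neutrophil granules, was at -0.24. *MMP8*, the collagenase of these cells, had no matched probe.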
